A study of Homo sapiens with 2 samples.

Results

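The aryl hydrocarbon receptor (AhR) and its direct targets were followed here as 5 genes, taken by name from the 16251 genes of a single-cell count matrix: AHR and ARNT, which encode the receptor and its partner, and CYP1B1, CYP1A1 and TIPARP, which the receptor switches on. All 5 had a row. MDA-MB-453, an established breast cancer cell line that the study uses as a triple-negative model, was treated for 24 hours with IL1β and TNFα at 10 ng/ml or with vehicle (water), and 1 library of single cells was sequenced per condition. The time is that of the labels and methods, while a legend of the study names a longer one for the same assay. The cytokine-treated library held 3163 cells and 69592446 UMIs (unique molecular identifiers, one for each captured transcript), and the vehicle library held 2822 cells and 58587996 UMIs. Both cultures were of the same line and differed by label in the cytokines alone, and the labels name no added AhR ligand or inhibitor.

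AhR is a transcription factor of the bHLH-PAS family that waits in the cytoplasm in a complex with HSP90 and p23. When a ligand binds, it moves to the nucleus, pairs with ARNT and binds xenobiotic response elements, whose core reads GCGTG. Its best known targets are CYP1A1 and CYP1B1, cytochrome P450 enzymes that oxidise polycyclic aromatic compounds and estrogens, and TIPARP, a mono-ADP-ribosyltransferase that feeds back to lower AhR activity. Kynurenine, made from tryptophan by TDO2 or IDO1 followed by a formamidase, is one of its endogenous ligands. KMO and KYNU use kynurenine up, which is why CYP1B1 was set against TDO2, KMO and KYNU in the cytokine-treated cells. These counts measure RNA, so neither ligand, protein nor DNA binding was observed.

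In the GENCODE v44 annotation of GRCh38, AHR lies at chr7:16916359-17346152 on the plus strand, ARNT at chr1:150809713-150876708 on the minus strand and CYP1B1 at chr2:38066973-38109902 on the minus strand. CYP1A1 lies at chr15:74719542-74725536 on the minus strand and TIPARP at chr3:156673235-156706770 on the plus strand. The members do not neighbour each other, each being on a chromosome of its own. The antisense gene CYP1B1-AS1 overlaps CYP1B1 and had 22 UMIs in the cytokine-treated and 17 UMIs in the vehicle library. TIPARP-AS1 overlaps TIPARP and had 134 and 90 UMIs in the same order of libraries. Whether the counting used strand is not given in the sources used here, so reads of a gene and its antisense partner may not be fully separated, which bears on TIPARP more than on CYP1B1.

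Promoter windows from 250 bases before to 50 bases after a start were available from RefSeq (GRCh38.p14) for 4 of the 5 members. Those of the targets CYP1A1 and TIPARP are printed because they show where the AhR core stands in a gene that was nearly silent and in one that was expressed. They read 5′ to 3′ along the gene, CYP1A1 from chr15:74725479-74725778 (minus strand) and TIPARP from chr3:156674340-156674639 (plus strand), with the core GCGTG, or CACGC where it lies on the other strand, in capitals.
CYP1A1: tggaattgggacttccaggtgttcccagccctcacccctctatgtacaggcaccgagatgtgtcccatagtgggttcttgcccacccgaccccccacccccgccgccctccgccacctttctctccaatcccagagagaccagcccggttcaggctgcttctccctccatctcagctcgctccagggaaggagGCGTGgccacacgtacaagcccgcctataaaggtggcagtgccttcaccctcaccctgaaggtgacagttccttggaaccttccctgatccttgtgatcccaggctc
TIPARP: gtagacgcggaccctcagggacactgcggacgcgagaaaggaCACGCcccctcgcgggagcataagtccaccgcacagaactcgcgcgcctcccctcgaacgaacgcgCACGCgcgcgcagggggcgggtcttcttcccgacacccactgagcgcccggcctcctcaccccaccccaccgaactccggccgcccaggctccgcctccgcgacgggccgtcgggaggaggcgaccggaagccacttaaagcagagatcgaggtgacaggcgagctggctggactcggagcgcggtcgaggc
The CYP1A1 window held 1 core, 57 bases before the start. The TIPARP window held 2 on the other strand, 208 and 142 bases before the start, and the gene's other windows held 0. The AHR window held 1 core, 37 bases past the start, and the window of ARNT held 0. Searched on both strands, the core was found in 36.5% of all 35116 windows and the longer TNGCGTG in 5.51%, and no member's window held the longer form. A match is only a run of letters, and enhancers further upstream lie outside these windows.

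None of the 5 members differed by 2-fold or more between the libraries. Levels are given as counts per 1000000 UMIs (CPM), and each log2 ratio is cytokine-treated over vehicle with an exact 95% interval. With 1 library per condition no test was possible, and each interval reflects the counting of UMIs alone, leaving out how cultures or cells vary. A gene that reached 5 CPM in either library was called measured, which 9192 genes and 4 of the 5 members met. A gene was called higher or lower when it differed by at least 2-fold with its interval on the same side of 0, which held for 4.29% of measured genes in the higher and 7.48% in the lower direction.

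AHR, the receptor, was at 6.39 CPM (445 UMIs) in the cytokine-treated library and at 5.99 CPM (351 UMIs) in the vehicle library. Its log2 ratio of 0.09 (−0.11 to 0.30) spanned 0. ARNT, the partner that AhR shares with the hypoxia factors, was at 12.2 CPM (850 UMIs) in cytokine-treated and 14.6 CPM (854 UMIs) in vehicle cells, a log2 ratio of −0.26 (−0.39 to −0.12). Receptor and partner were thus transcribed in both cultures, and neither came near a 2-fold difference.

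Of the targets, CYP1B1 was at 67.5 CPM (4695 UMIs) in cytokine-treated cells and at 88.1 CPM (5162 UMIs) in vehicle cells, a log2 ratio of −0.39 (−0.44 to −0.33). TIPARP was at 6.65 CPM (463 UMIs) and 9.05 CPM (530 UMIs) in the cytokine-treated and vehicle libraries, a log2 ratio of −0.44 (−0.63 to −0.26). CYP1A1, the target most often read as a sign of AhR activity, had 20 UMIs in the whole cytokine-treated library and 11 UMIs in the whole vehicle library. At 0.287 CPM under cytokines and 0.188 CPM under vehicle, its log2 ratio of 0.61 ran from −0.52 to 1.82, and a difference was not detectable at this depth.

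These differences have to be read against the whole table. Over all measured genes the log2 ratio had a median of −0.20, and 57.5% of measured genes had an interval entirely below 0 against 27.3% entirely above. Among the 4 measured members, 3 intervals lay below 0 and 0 above, and their median log2 ratio was −0.32. With TMM factors (edgeR), which moved every ratio up by 0.18 and gave 533 genes called higher and 485 lower against 394 and 688 by totals, CYP1B1 was at −0.21 and ARNT at −0.08 with an interval across 0. On that scale TIPARP was at −0.27 (−0.45 to −0.08) and AHR at 0.27 (0.07 to 0.48), no longer across 0. TDO2, by contrast, was at 563 CPM in cytokine-treated and 9.30 CPM in vehicle cells, KMO at 243 and 9.32 CPM, and KYNU at 69.9 and 4.08 CPM. Those log2 ratios of 5.92, 4.70 and 4.10 stood beside a CYP1B1 level that was lower.

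**Figure D1:**
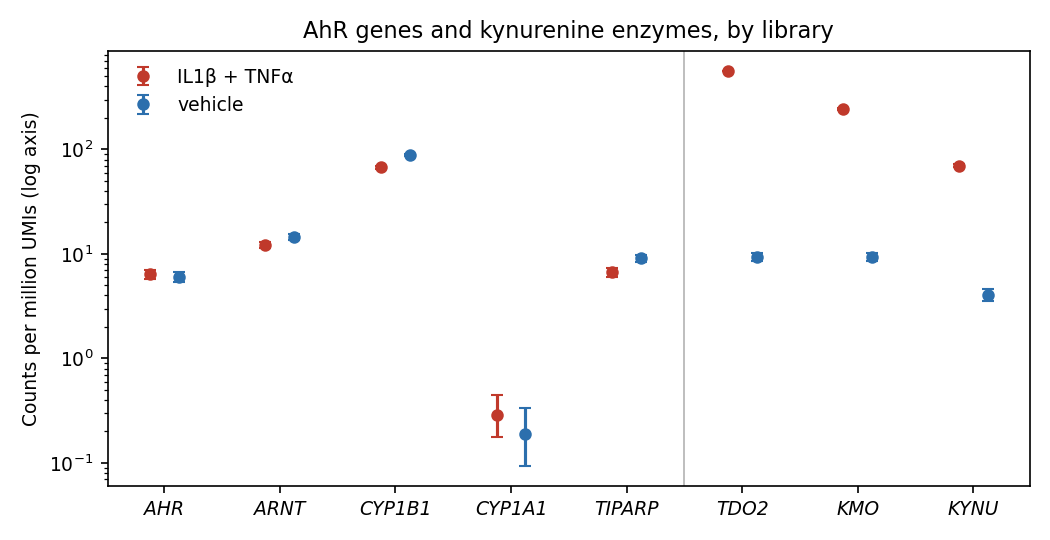
Level of each AhR gene and of TDO2, KMO and KYNU in CPM (log axis) in the cytokine-treated (red) and vehicle (blue) libraries, with exact 95% Poisson intervals for counting error. The AhR genes sit close together between libraries, with CYP1B1 at 67.5 and 88.1 CPM, whereas TDO2 sits at 563 and 9.30 CPM.

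The share of cells that held a transcript was compared at an equal depth of 15000 UMIs per cell, drawn at random, which kept 3033 cytokine-treated and 2586 vehicle cells and left out 130 and 236 shallower ones. CYP1B1 was found in 46.2% of cytokine-treated (exact binomial interval 44.4 to 48.0%) and 57.5% of vehicle cells (55.6 to 59.4%), against 56.2% and 65.2% without thinning. AHR was found in 8.41% of cytokine-treated and 7.85% of vehicle cells (12.3% and 10.6% without thinning), and ARNT in 16.8% and 18.5% (23.2% and 25.7%). TIPARP was found in 9.13% of cytokine-treated (8.13 to 10.2%) and 13.0% of vehicle cells (11.7 to 14.4%), or 13.0% and 16.8% without thinning. CYP1A1 was found in 10 of the thinned cytokine-treated cells (0.330%) and 6 of the vehicle cells (0.232%), or in 15 and 8 cells without thinning. In a culture of 1 line there is no cell type that should lack these genes, so the part of free RNA in these shares was not tested.

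CYP1B1 was spread unevenly over cells. In thinned cells its variance was 2.87 times its mean under cytokines and 2.55 times under vehicle, where pure counting gives 1. The other members, at under 0.21 UMIs per cell on average, were too sparse for this ratio to show whether they were spread evenly. The richest cell had 22 CYP1B1 UMIs under cytokines and 19 under vehicle, while 53.8% of cytokine-treated and 42.5% of vehicle cells had 0. Cells with 5 or more CYP1B1 UMIs made up 4.42% of cytokine-treated and 6.73% of vehicle cells and held 29.3% and 32.9% of all CYP1B1 UMIs. Counting intervals for CYP1B1 are therefore narrower than its spread between cells.

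**Figure D2:**
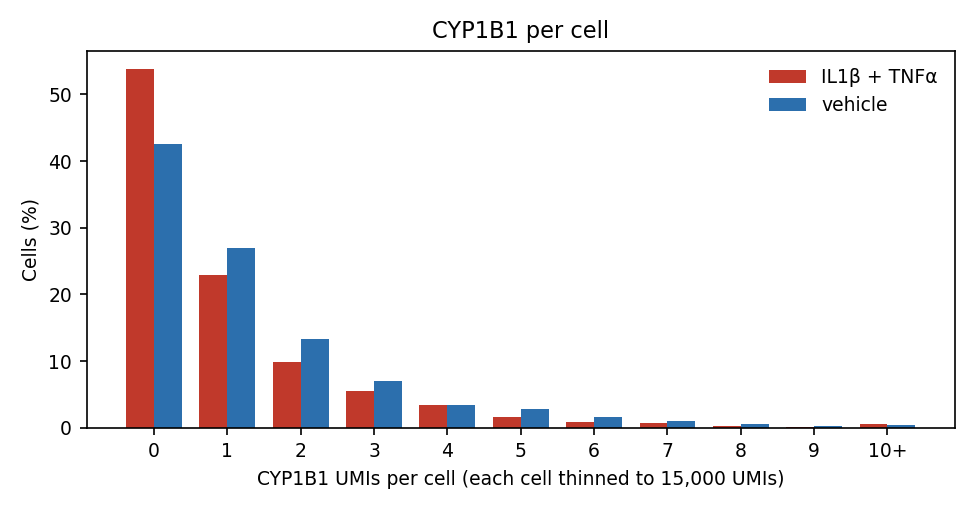
Percent of cells (vertical axis) with each number of CYP1B1 UMIs (horizontal axis, the last bar holding 10 or more) after thinning to 15000 UMIs, cytokine-treated cells in red and vehicle cells in blue. Cells without a CYP1B1 UMI make up 53.8% under cytokines and 42.5% under vehicle, and 17 and 12 cells reach 10 or more.

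Cell cycle position differed widely between the libraries. By the deposited phase calls, 88.5% of cytokine-treated and 36.6% of vehicle cells were in G1, and 40 cytokine-treated and 517 vehicle cells were in G2M. CYP1B1 in cytokine-treated cells was at 65.8 CPM in G1 and 79.7 CPM in S, and in vehicle cells at 78.8 CPM in G1, 86.5 CPM in S and 108.5 CPM in G2M. In vehicle cells the log2 ratio of G2M over G1 was 0.46 (0.35 to 0.57). Within G1 alone the log2 ratio of cytokine-treated over vehicle cells was −0.26 (−0.35 to −0.18) for CYP1B1 and −0.50 (−0.75 to −0.25) for TIPARP. AHR in G1 was at 6.24 CPM in cytokine-treated and 5.64 CPM in vehicle cells, and ARNT at 12.4 and 14.4 CPM. CYP1B1 was thus lower in the cytokine-treated library also within G1, by less than over all cells. Over all measured genes the median log2 ratio in G1 cells was −0.16. In S cells the log2 ratio of CYP1B1 was −0.12 (−0.25 to 0.01), an interval across 0.

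The authors deposited 6 cluster numbers over both libraries. The clusters were made from the expression of these same cells, so levels by cluster are a description, and the clusters are called by number. The shares of cells in them differed between the libraries, cluster 0 holding 34.8% of cytokine-treated and 10.0% of vehicle cells. Cluster 2 was made of S and G2M cells, with 1.06% of its cytokine-treated and 0% of its vehicle cells in G1.

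Cluster 1 was the place of highest and cluster 0 that of lowest AHR and CYP1B1 in both libraries. CYP1B1 in cytokine-treated cells was at 38.2 CPM in cluster 0, 105.8 CPM in cluster 1, 79.4 CPM in cluster 2, 70.2 CPM in cluster 3, 61.4 CPM in cluster 4 and 72.9 CPM in cluster 5. In vehicle cells it was at 53.7, 109.2, 92.8, 91.5, 75.3 and 83.5 CPM in clusters 0 to 5. Over all phases every cluster had the lower value under cytokines by UMI totals, but the gap was not even. The log2 ratio of cytokine-treated over vehicle cells was −0.49 (−0.68 to −0.30) in cluster 0 and −0.05 (−0.15 to 0.06) in cluster 1, and the interval in cluster 5 also spanned 0. Among G1 cells the log2 ratio was −0.16 (−0.44 to 0.14) in cluster 0 and 0.07 (−0.07 to 0.20) in cluster 1, and of the 5 clusters with G1 cells in both libraries only cluster 3 had an interval below 0, at −0.35 (−0.54 to −0.16). The TMM shift of 0.18 is also larger than the gap in cluster 1. Between neighbours in the order of levels, intervals overlapped for clusters 2 and 5, 5 and 3, and 3 and 4 in cytokine-treated cells. In vehicle cells they overlapped for clusters 2 and 3, 3 and 5, and 5 and 4. Cluster 1 and cluster 0 stood apart from the rest in both libraries.

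AHR in cytokine-treated cells was at 2.81 CPM (2.18 to 3.57) in cluster 0 and 10.9 CPM (9.38 to 12.7) in cluster 1. The other clusters lay between 5.54 and 7.20 CPM with overlapping intervals. Cluster 0 overlapped cluster 5 (3.03 to 9.30), and cluster 1 overlapped cluster 4 (5.29 to 9.57). In vehicle cells AHR was at 2.42 CPM (1.32 to 4.05) in cluster 0 and 8.34 CPM (6.76 to 10.2) in cluster 1. The others lay between 3.93 and 7.64 CPM there. Cluster 1 overlapped clusters 2, 3 and 4, and cluster 0 overlapped cluster 5. Receptor and target thus had their extreme values in the same clusters, though for AHR not all intervals were separate. As the log2 ratio of cluster 1 over cluster 0, CYP1B1 was at 1.47 (1.35 to 1.59) under cytokines and 1.03 (0.85 to 1.21) under vehicle, and AHR at 1.96 (1.55 to 2.39) and 1.79 (0.97 to 2.71).

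TIPARP followed in the same direction by less, with a log2 ratio of cluster 1 over cluster 0 of 0.79 (0.43 to 1.15) under cytokines and 0.70 (0.17 to 1.27) under vehicle. Its highest value under cytokines was in cluster 5, at 9.5 CPM (6.09 to 14.1), which overlapped that of cluster 1, 9.0 CPM (7.58 to 10.6). ARNT was nearly flat, between 11.1 and 14.7 CPM in the 6 clusters under cytokines and between 13.1 and 15.7 CPM under vehicle. The few CYP1A1 UMIs lay in clusters 1, 2 and 3, with 12, 2 and 6 UMIs under cytokines and 5, 2 and 4 under vehicle, and clusters 0, 4 and 5 held 0 in both libraries. With 0 of 1100 cytokine-treated cells of cluster 0 holding a CYP1A1 UMI, a limit of 3 cells allows a share of up to 0.273% with a UMI, which is not a limit on cells that express the gene.

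TDO2 ran the other way between these clusters. Its log2 ratio of cluster 1 over cluster 0 was −1.60 under cytokines and −1.79 under vehicle, and that of KMO −1.0 and −0.65. KYNU did not follow them, with −0.00 (−0.11 to 0.10) under cytokines and 1.10 (0.32 to 1.95) under vehicle. Depth differed little between the cytokine-treated cells of cluster 1 and cluster 0, with medians of 21214 and 21165.5 UMIs, and the mitochondrial share was 7.31% and 6.22%.

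**Figure D3:**
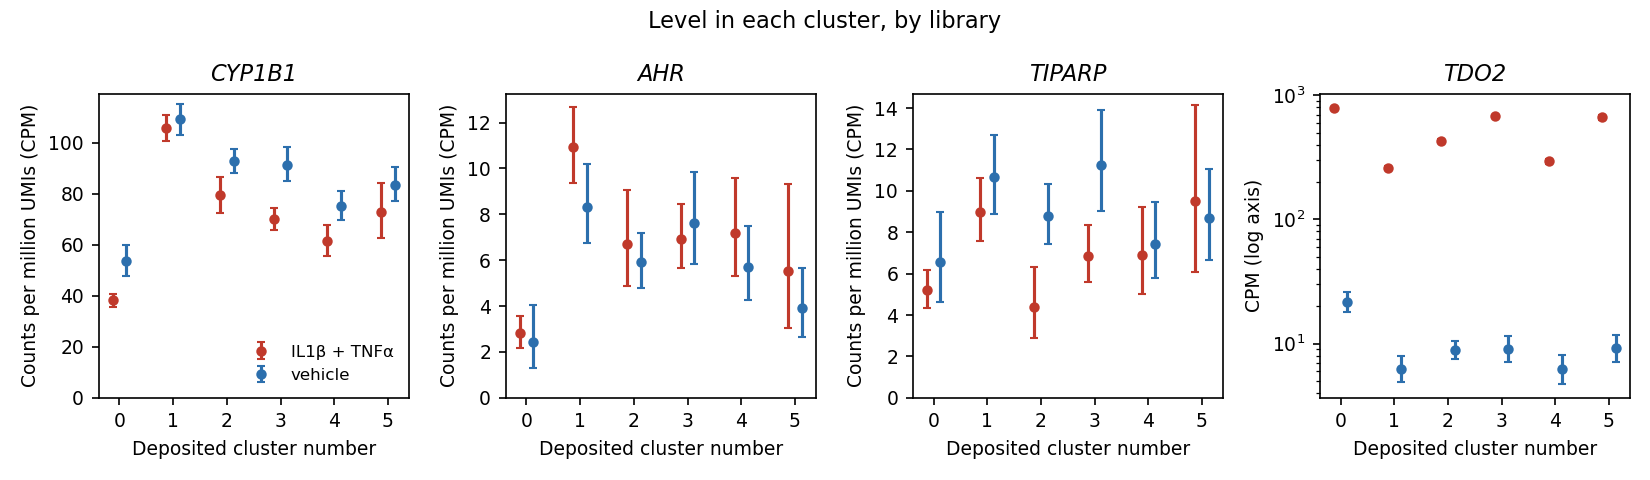
Level of CYP1B1, AHR, TIPARP and TDO2 in CPM in each deposited cluster of cytokine-treated (red) and vehicle (blue) cells, with exact 95% Poisson intervals; the TDO2 axis is a log axis. CYP1B1 and AHR peak in cluster 1 and are lowest in cluster 0 in both libraries, at 105.8 and 38.2 CPM for CYP1B1 under cytokines, where TDO2 is highest in cluster 0.

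Within the cytokine-treated library, cells with more TDO2 had less CYP1B1. The study found kynurenine secreted into the medium, so a cell's own TDO2 need not set its exposure to kynurenine. That exposure was not measured here. In the 941 thinned cells without a TDO2 UMI, CYP1B1 was at 90.8 CPM (85.9 to 95.9). It was at 78.9 CPM in the 801 cells with 1 to 4 TDO2 UMIs, 51.4 CPM in the 446 cells with 5 to 9, 45.1 CPM in the 463 cells with 10 to 19 and 43.1 CPM (37.9 to 48.8) in the 382 cells with 20 or more. The last 3 of these bins had overlapping intervals, so the low levels were already reached from 5 UMIs on. Vehicle cells without a TDO2 UMI had 87.9 CPM (84.9 to 91.0), so CYP1B1 in TDO2-negative cells had overlapping intervals in the 2 libraries.

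KMO gave the same order. CYP1B1 was at 98.8 CPM (89.4 to 108.8) in the 276 cytokine-treated cells without a KMO UMI, 72.2 CPM with 1 to 4, 55.8 CPM with 5 to 9 and 33.6 CPM (25.9 to 42.9) in the 127 cells with 10 to 19. KYNU, which acts downstream of KMO, did not. CYP1B1 was at 68.1 CPM (64.7 to 71.6) without a KYNU UMI, 69.1 CPM with 1 to 4 and 76.7 CPM (63.3 to 92.0) with 5 to 9. In vehicle cells, where few cells held these transcripts, CYP1B1 was at 85.8 CPM (70.7 to 103.3) in the 87 cells with 1 to 4 TDO2 UMIs, 92.5 CPM with 1 to 4 KMO UMIs and 94.6 CPM with 1 to 4 KYNU UMIs, all overlapping the cells without.

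**Figure D4:**
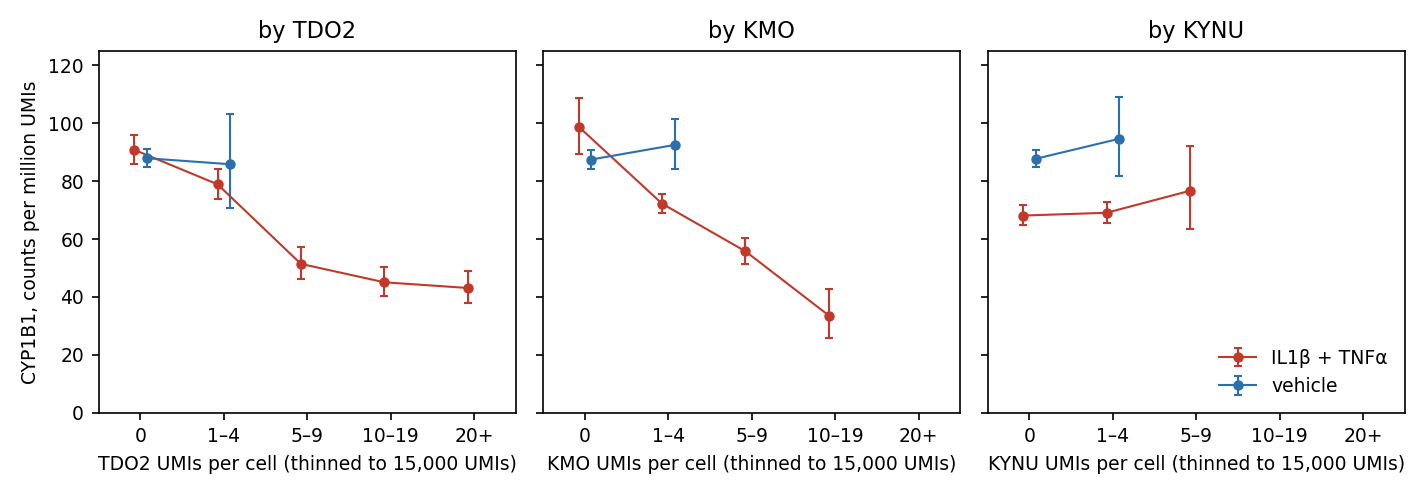
CYP1B1 in CPM (vertical axis) in cells grouped by their UMIs of TDO2, KMO or KYNU (horizontal axis), cytokine-treated cells in red and vehicle cells in blue, with exact 95% Poisson intervals; bins of fewer than 20 cells are left out. Under cytokines CYP1B1 falls to 43.1 CPM in the highest TDO2 bin, against 90.8 CPM in cells without TDO2, and shows no such order along KYNU.

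The receptor transcript had the same order along TDO2. AHR was at 8.43 CPM (6.98 to 10.1) in cytokine-treated cells without a TDO2 UMI and at 6.41, 5.83, 3.74 and 3.32 CPM (2.0 to 5.18 in the last) in the bins above. TIPARP had no such order, at 7.51 CPM (6.15 to 9.08) in cells without TDO2 and 7.50 CPM (5.43 to 10.1) in those with 20 or more. The makeup of the bins changed too, since cluster 0 gave 24.9% of the cells without TDO2 and 54.7% of those with 20 or more UMIs, and cluster 1 gave 33.3% and 7.59%. G1 cells made up 87.9% and 93.2% of the same bins. Along KMO, cluster 0 gave 10.9% of the cytokine-treated cells without a KMO UMI and 63.8% of those with 10 to 19. Cluster 1 gave 35.1% and 5.51% of these KMO bins, and G1 cells made up 75.7% and 98.4%.

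Within each cluster the difference along TDO2 had the same direction. Cytokine-treated cells with 10 or more TDO2 UMIs had 34.5 CPM of CYP1B1 in cluster 0, against 44.2 CPM in cells without TDO2, a log2 ratio of −0.36 (−0.66 to −0.05). The same log2 ratio was −0.85 in cluster 1, −1.10 in cluster 2, −0.70 in cluster 3, −0.96 in cluster 4 and −1.53 in cluster 5. All 6 counting intervals lay below 0. As CYP1B1 varied more between cells than counting gives, these intervals are too narrow, and that of cluster 0 ended at −0.05. Over all cells the log2 ratio was −1.04 (−1.19 to −0.90), with 44.2 CPM in cells rich in TDO2 and 90.8 CPM in those without. Cell by cell the relation was weak, with Pearson's r of CYP1B1 across 3163 cytokine-treated cells at −0.18 with TDO2, −0.16 with KMO and 0.01 with KYNU. In 2822 vehicle cells the same 3 values were within 0.05 of 0. Within clusters of cytokine-treated cells, r with KMO was −0.13 in cluster 1 and −0.14 in cluster 3. It was −0.004, −0.05, −0.03 and −0.04 in clusters 0, 2, 4 and 5. Cells of 1 library are not independent cultures, and values of sparse counts share each cell's depth, so these are descriptions.

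CYP1B1 was higher in cells in which AHR was detected. Cytokine-treated cells with an AHR UMI had 116 CPM of CYP1B1 (105.5 to 127.4, 255 cells), against 64.6 CPM (62.1 to 67.0, 2778 cells) in those without. Vehicle cells with one had 148 CPM (135.1 to 162.8, 203 cells), against 82.9 CPM (80.0 to 86.0, 2383 cells). The ratio was 1.80-fold under cytokines and 1.79-fold under vehicle. In the 21 cytokine-treated cells with 2 or more AHR UMIs CYP1B1 was at 203 CPM (156 to 259), and 76.2% of these cells were in cluster 1.

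This difference was also present within clusters. At least 20 such cells were found in clusters 0 to 4 under cytokines and in clusters 1 to 5 under vehicle. In each of these CYP1B1 was higher in cells with an AHR UMI, and the interval of the ratio spanned 0 only in clusters 2 and 4 under cytokines. Those intervals also reflect the counting of UMIs alone and are too narrow for the spread of CYP1B1 between cells. In cluster 1 CYP1B1 was at 178 CPM with and 101 CPM without an AHR UMI under cytokines, and at 179 and 106 CPM under vehicle.

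TIPARP and ARNT divided cells less than AHR. Cytokine-treated cells with a TIPARP UMI had 78.2 CPM of CYP1B1, against 67.9 CPM without, and vehicle cells 102 CPM with and 86.0 CPM without. The log2 ratios were 0.20 (0.03 to 0.37) under cytokines and 0.25 (0.11 to 0.39) under vehicle. For ARNT both intervals spanned 0, with log2 ratios of −0.07 under cytokines and 0.12 under vehicle.

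The rare CYP1A1 transcripts came from cells rich in CYP1B1. In the 15 cytokine-treated cells with a CYP1A1 UMI, unthinned, CYP1B1 ranged from 0 to 19 UMIs with a median of 9, against a median of 1 in all cytokine-treated cells. In the 8 such vehicle cells it ranged from 0 to 16 with a median of 5, again against 1 in all cells. Summed, these cells had 350 CPM of CYP1B1 (292 to 416) under cytokines and 313 CPM (233 to 412) under vehicle. An AHR UMI was present in 10 of the 15 cytokine-treated cells, against 12.3% of all, and in 3 of the 8 vehicle cells, against 10.6% of all. TDO2 was present in 9 of the 15 cytokine-treated cells, where 72.0% of all cells had it. The median depth of these cells was 23030 UMIs under cytokines and 20228 UMIs under vehicle, close to that of their libraries (21508 and 20249 UMIs). With so few cells the values describe these cells alone.

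**Figure D5:**
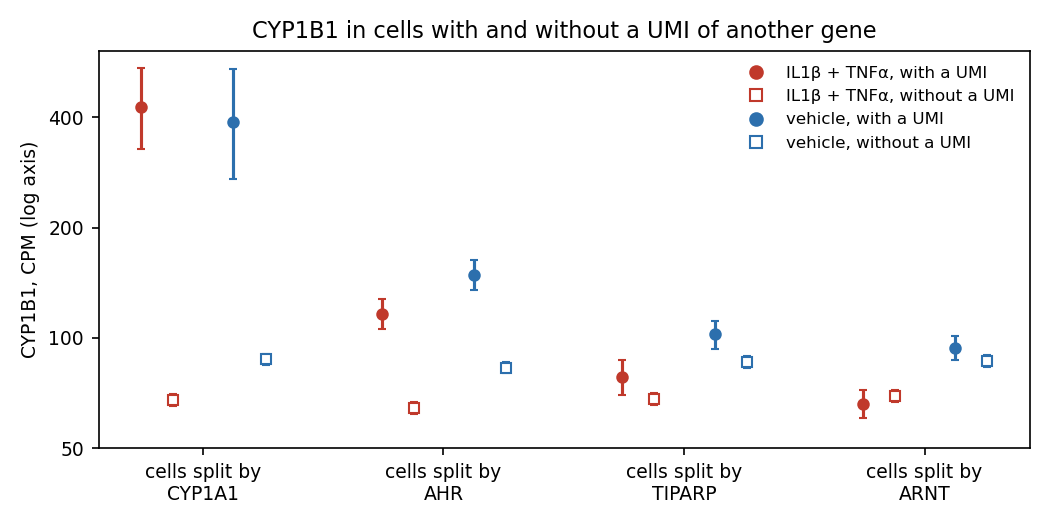
CYP1B1 in CPM (log axis) in thinned cells with (filled circles) and without (open squares) a UMI of CYP1A1, AHR, TIPARP or ARNT, cytokine-treated cells in red and vehicle cells in blue, with exact 95% Poisson intervals. CYP1B1 is at 116 CPM with and 64.6 CPM without AHR under cytokines, and the CYP1A1 points rest on 10 cytokine-treated and 6 vehicle cells.

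Read from the side of CYP1B1, AHR was found in more cells as the number of CYP1B1 UMIs grew. An AHR UMI was found in 5.70% of cytokine-treated cells without CYP1B1, 9.24% of those with 1 UMI, 13.1% of those with 2 to 4 and 17.2% of those with 5 or more. The same shares in vehicle cells were 5.64%, 7.04%, 9.56% and 19%. TIPARP was found in 11.9% of cytokine-treated cells with 5 or more CYP1B1 UMIs and 8.88% of those with 0, and in 16.1% and 10.9% of such vehicle cells. Cells with 5 or more CYP1B1 UMIs made up 10.2% of cluster 1 and 0.749% of cluster 0 under cytokines, and 10.1% and 2.25% under vehicle.

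No gene tracked CYP1B1 closely from cell to cell. Among 4382 genes at 20 CPM or more in the cytokine-treated library only 6 had a Pearson's r over 0.2 in size, and among 4800 genes in the vehicle library only 2. The highest under cytokines were NUDT8 (0.23), LMO4 (0.21), C4orf19 (0.20), MIR181A1HG (0.18) and PHLDA2 (0.17). Among the 5 highest under vehicle were ST3GAL1 (0.21), SLC1A7 (0.20), FTH1 (0.19) and again LMO4 (0.18). The lowest under cytokines were S100A9 (−0.23), S100A8 (−0.23) and CD24 (−0.22), of which S100A9 and S100A8 encode the subunits of calprotectin. The lowest under vehicle were CD24 (−0.19), RPL8 (−0.18) and EIF3E (−0.16). LMO4, a LIM-domain transcription regulator, and CD24, a surface glycoprotein, were the genes named at the same end in both libraries. TDO2 ranked 4376 and KMO 4371 of the 4382 genes under cytokines.

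Other genes of the AhR battery were mostly low. Of 11 listed, 6 had values and 3 were measured. NQO1, a quinone reductase that AhR and NRF2 both induce, was at 1090 CPM in cytokine-treated and 677 CPM in vehicle cells, a log2 ratio of 0.69 (0.67 to 0.70) and so under 2-fold. NFE2L2, which encodes NRF2, was at 46.3 and 56.3 CPM. UGT1A1, a glucuronidating enzyme, was the 1 gene called higher, at 6.55 CPM (456 UMIs) under cytokines and 2.99 CPM (175 UMIs) under vehicle, a log2 ratio of 1.13 (0.88 to 1.39). In G1 cells alone it was not called, at 6.66 and 3.34 CPM and a ratio just under 2-fold (0.62 to 1.39 on the log2 scale). It shares its last exons with other UGT1A genes, so the split of reads among them is uncertain. AHRR, the AhR repressor and itself a direct target, had 18 UMIs under cytokines and 8 under vehicle, and ALDH3A1 12 and 4.

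UGT1A1 and NQO1 were laid out differently over the clusters. As the log2 ratio of cluster 1 over cluster 0, UGT1A1 was at 2.32 (1.90 to 2.76) under cytokines and 3.68 (2.08 to 5.99) under vehicle, the direction of AHR and CYP1B1. NQO1 was at −0.91 under cytokines and −0.60 under vehicle, the direction of TDO2 between cluster 1 and cluster 0. Over all 6 clusters NQO1 was highest in cluster 3, at 1595 CPM under cytokines and 1255 CPM under vehicle. It was lowest in cluster 4, at 578 and 404 CPM, and so did not have the order of TDO2. Between single cells NQO1 did not oppose CYP1B1, with r of 0.01 under cytokines and 0.10 under vehicle, where NQO1 was at 797 CPM in cells with 5 or more CYP1B1 UMIs and 645 CPM in cells with 0. Within clusters the r of NQO1 with CYP1B1 ran from −0.004 in cluster 2 to 0.25 in cluster 3 under cytokines. Under vehicle it ran from 0.02 in cluster 2 to 0.23 in cluster 4. UGT1A1 was found in 20.9% of the cytokine-treated cells with 5 or more CYP1B1 UMIs and 6.86% of those with 0, but in 5.17% and 4.09% of such vehicle cells.

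The genes for proteins that hold AhR were transcribed in both cultures. All 8 listed genes of its chaperone complex and turnover were measured and none was called, with a median log2 ratio of −0.16. HSP90AA1 was at 989 CPM under cytokines and 1274 CPM under vehicle, HSP90AB1 at 516 and 483 CPM and STUB1, a ubiquitin ligase, at 362 and 403 CPM. PTGES3, which encodes p23, was at 176 and 295 CPM (log2 ratio −0.74), and the HSP90 genes and PTGES3 have near-identical pseudogenes, so their counts are uncertain.

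Of 16 listed coregulators and partners, 15 were measured, with a median log2 ratio of −0.31. RELB, an NF-κB subunit that can also pair with AhR, was the 1 gene called higher, at 28.3 CPM (1972 UMIs) under cytokines and 0.290 CPM (17 UMIs) under vehicle, a log2 ratio of 6.61 (5.93 to 7.39). KLF6 was at 194 and 106 CPM, NCOR1 at 102 and 108 CPM, SMARCA4 at 65.8 and 82.1 CPM and NRIP1 at 34.0 and 32.3 CPM, all under 2-fold.

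The list of other bHLH-PAS genes, the family of AHR and ARNT, also held the PER genes, which have PAS domains without bHLH. Of its 9 genes with values, 5 were measured. PER3, a circadian repressor, was called lower, at 3.66 CPM under cytokines and 18.4 CPM under vehicle (log2 ratio −2.33, −2.53 to −2.13). HIF1A, which competes with AhR for ARNT, was at 15.1 and 16.4 CPM, EPAS1 at 19.8 and 16.5 CPM, CLOCK at 17.7 and 20.6 CPM and PER2 at 7.93 and 12.4 CPM. Of 13 hypoxia target genes with values, 8 were measured and 1, PFKFB3, a regulator of glycolysis, was called lower at 3.88 CPM under cytokines and 8.48 CPM under vehicle. The highest of the rest were LDHA (512 and 569 CPM), EGLN3 (185 and 145 CPM), BNIP3 (150 and 120 CPM) and EGLN1 (26.2 and 31.9 CPM).

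Of 11 genes with values that make, use or carry AhR ligands, 8 were measured. TDO2, KMO and KYNU, chosen with earlier results of these data known, were called higher. Of all measured genes, 4.29% were called higher and 7.48% lower. SLC7A5, the large neutral amino acid transporter through which kynurenine can enter cells, was called lower, at 3.43 CPM under cytokines and 12.0 CPM under vehicle (log2 ratio −1.81, −2.02 to −1.59), and its partner SLC3A2 was at 44.8 and 44.1 CPM. GOT2 was at 58.8 and 81.4 CPM, KYAT3 at 8.65 and 6.66 CPM and the formamidase AFMID at 5.29 and 8.47 CPM. IDO1 had 4 UMIs under cytokines and 7 under vehicle.

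TIPARP is also known as PARP7, and its relatives were compared with it. Of 15 other genes of the family with values, 9 were measured. PARP10 (7.56 CPM under cytokines, 3.36 CPM under vehicle) and PARP12 (5.37 and 2.20 CPM) were called higher, and PARP2, a DNA repair enzyme, was called lower (9.05 and 19.1 CPM). PARP1 was at 313 and 284 CPM, ZC3HAV1 at 24.8 and 26.4 CPM, TNKS2 at 17.4 and 20.5 CPM and PARP14 at 17.0 and 10.1 CPM. TIPARP, at a log2 ratio of −0.44, was not called.

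Over all the lists drawn up around AhR, 69 of 101 genes with values were measured, of which 7 were called higher and 4 lower, beside the 4.29% and 7.48% of all measured genes. The line's own markers stayed on, EPCAM at 242 CPM under cytokines and 227 CPM under vehicle and FOXA1 at 146 and 157 CPM, whereas KRT8 was at 1070 and 330 CPM and KRT18 at 1457 and 688 CPM. ERBB2, whose product is by definition not overexpressed in triple-negative tumours, was at 208 and 129 CPM, and ESR1 and PGR had no row in the matrix. The study removed genes found in fewer than 10 cells, so a missing row is not a measured 0. Of 8 listed markers of other cell types 2 had values, COL1A1 at 20.1 and 20.9 CPM and PECAM1 with 11 and 0 UMIs. ZEB1, which the study places downstream of AhR, had 12 UMIs under cytokines and 8 under vehicle, too few to compare.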

How the data were processed

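Cells of MDA-MB-453 treated with cytokines or vehicle, 1 library each, were grouped by the sample labels and the deposited cell table. Per the study's methods and the submitters' processing notes, UMIs were counted with Cell Ranger 3.1.0 on GRCh38 and filtered in Seurat 4.0.4. The authors deposited raw UMI counts per gene and cell without normalization, and for each cell its percent of mitochondrial UMIs, a phase call and a cluster number. The deposited cells have fewer than 50000 UMIs, between 3000 and 5000 genes and under 15% mitochondrial UMIs, and cells removed by such limits were not analysed here, which may affect dividing cells unequally. The deposited phase scores were not used, and how the cells were clustered is not given in the sources used here. Doublets were not called, and 8 cell barcodes occurred in both libraries.

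Counts were summed per library, cluster or phase and divided by the UMI total to give CPM. Ratios have exact conditional binomial intervals, levels exact Poisson intervals and shares Clopper-Pearson intervals, at 95%. Cells were thinned to 15000 UMIs, bins of fewer than 20 cells were left out, and strata of fewer than 50 cells are given by cell number only. A count of 3 UMIs, the floor, equals 0.0431 CPM in the cytokine-treated and 0.0512 CPM in the vehicle library. Pearson's r was taken across cells on the natural log of 1 plus 10000 times the fraction of UMIs. The ratio step was tested on simulated data. The text names the 5 members, TDO2, KMO and KYNU, the called genes and up to 4 highest others of each list, and the 5 highest and 3 lowest r with CYP1B1, exceptions being stated, and some genes that this rule selects are not reported here. Members and lists were chosen with earlier results of these data known. Alternatives were TMM (edgeR 4.0.16) and DESeq2 1.42.0 size factors, other totals, filters and thinning depths, per-cell means, G1 cells alone and other correlation measures. Python 3.11.15 with numpy 2.4.6, pandas 2.3.3 and scipy 1.17.1 was used.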

Additional observations from a re-analysis of the deposited data

How the results depend on the processing

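The log2 ratio of the level of each member kept its sign under the alternatives run, and that of AHR had an interval above 0 with TMM (0.27) and DESeq2 factors (0.29). The log2 ratio of CYP1B1 was −0.21 with TMM factors, −0.19 with DESeq2 size factors, −0.26 in G1 cells alone and −0.24 with equal weight to each cluster, an alternative chosen after seeing the data. ARNT was at −0.078 with TMM and −0.062 with DESeq2 factors, both with intervals across 0, and TIPARP at −0.25 (−0.43 to −0.07) with DESeq2 factors. By construction TMM and DESeq2 factors moved all ratios by 0.18 and 0.19. The log2 ratio of shares of cells with a UMI of ARNT was −0.48 when thinned to 7500 UMIs, against −0.14 at 15000 UMIs, and the cause was not tested. The log2 ratio of CYP1B1 in cluster 1 over cluster 0 of vehicle cells was 1.25 in G1 cells, and r of CYP1B1 with TDO2 under cytokines was −0.12 on thinned counts, also with the cause not tested. Of all genes, 660 were called higher and 1060 lower at a limit of 1 CPM, and 221 and 336 at 20 CPM, as fewer or more genes enter. In G1 cells 400 were called higher and 399 lower, against 394 and 688 in all cells. With DESeq2 factors 549 were called higher and 478 lower, and 416 and 877 when ribosomal and mitochondrial genes were left out of the totals. Of listed genes around AhR, 4 were called higher and 0 lower at 20 CPM, 10 higher and 2 lower with TMM factors, and 5 higher and 4 lower in G1 cells, against 7 and 4. In all 63 recomputed values stayed within their limits and 45 moved, most of them shares of cells, which scale with the thinning depth. Low counts limit CYP1A1 and AHRR in particular. With 1 library per condition no replicate could be left out.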

Other observations

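Outside the AhR targets, the cytochrome P450 and NRF2 lists gave these values. Of 14 other P450 genes and their reductase with values, 4 were measured and 0 passed 2-fold, among them CYP51A1 at 34.0 CPM in cytokine-treated and 36.1 CPM in vehicle cells, POR at 10.4 and 11.8 CPM, CYP20A1 at 8.87 and 10.9 CPM and CYP27B1 at 7.95 and 9.20 CPM. Just under the limit for measured genes, and named after its value was seen, CYP4B1 had 347 UMIs (4.99 CPM) under cytokines and 11 UMIs (0.188 CPM) under vehicle, a log2 ratio of 4.73 (3.87 to 5.75). CYP1B1 and CYP4B1, both P450 genes, thus stood on opposite sides of 0. CYP4B1 was not alone in this among the P450 genes under that limit. CYP27A1 (log2 ratio 4.24), CYP4Z1 (2.94) and CYP4X1 (2.92) also had intervals above 0, and CYP4V2 (−0.81) had one below. These rested on 64 or fewer UMIs per library.

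Of 10 NRF2 target genes with values, 9 were measured and 0 passed 2-fold in either direction, with a median log2 ratio of −0.55, beside −0.20 for all measured genes. PRDX1 was at 736 CPM under cytokines and 661 CPM under vehicle, TXN at 621 and 506 CPM and TXNRD1 at 30.6 and 47.0 CPM. The shared AhR and NRF2 target NQO1, at a log2 ratio of 0.69, lay above all of the 9, which ran from −0.93 to 0.29.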
